A study of Mus musculus with 4 samples.

Results

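Rib chondrocytes of Xbp1 Col2CreΔex2 Matn3 V194D mice (double mutant) were compared with those of Xbp1 WT Matn3 V194D mice (Matn3 mutant), which asks how the loss of XBP1 altered expression in cells that already made the mutant matrilin-3. The comparison was chosen by the titles of the arrays and holds 2 of the 4 arrays of the series, 1 per genotype. Both groups carried the V194D knock-in allele of Matn3, an amino acid substitution in a cartilage matrix protein that misfolds in the endoplasmic reticulum (ER). They differed in Xbp1, from which Cre recombinase under the Col2a1 promoter had removed exon 2 in the double mutant, so that cells in which this promoter was never active kept the gene. All mice were C57BL6/J and 5 days old, and costochondral cartilage was digested with collagenase. RNA was pooled from 3 extractions for each genotype before hybridization to a whole-genome 3' expression array. The remaining arrays, used here for reference, were wild type (neither change) and XBP1 null (the same deletion with unmutated Matn3). With 1 pooled array per genotype no difference has a test or an error, so folds below describe these arrays, and a difference of over 1.5-fold is counted as higher or lower.

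The unfolded protein response (UPR) is signalled from the ER membrane by PERK, ATF6 and IRE1. IRE1 cuts the Xbp1 mRNA, and the mRNA spliced in this way encodes XBP1s, a transcription factor for genes of protein folding, secretion and ER-associated degradation (ERAD). Chondrocytes secrete large amounts of collagen and proteoglycan, and the growth plate relies on this machinery.

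Signals are linear intensities, and those under 1 were set to 1. Their medians were 43.8 on each of the 4 arrays, and 8.36% to 10.9% of signals on an array were under 1. Each of 18193 genes was read from its probe set with the highest mean log2 signal, and a fold is a ratio of those floored signals. Between the Matn3 mutant and the double mutant, log2 signals of all 45037 probe sets had a Pearson r of 0.97, against 0.96 in each of the other 5 pairs of arrays. The Matn3 mutant array was the lowest of the 4 for 42.7% of the 10982 genes at or above the median intensity. Of those genes, the median log2 difference, double mutant minus Matn3 mutant, was 0.19, so list medians below are set beside that of all genes, 0.15.

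Signals of Y-linked genes moved with the comparison. The order of values kept throughout is that of wild type first, then the XBP1 null array, the Matn3 mutant array and the double mutant array. Eif2s3y had signals of 484, 665, under 1 and 855, Uty of 135, 233, under 1 and 356 and Kdm5d of 151, 212, 1.65 and 237. Xist, which coats the inactive X chromosome, had signals of 7393, 5262, 9718 and 4101. The Matn3 mutant array thus had almost no Y-linked signal and the highest Xist signal. The sex of the pooled mice is not in the labels, and the sexes in the pools and the genotypes cannot be told apart for any gene below.

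Chondrocyte markers were at the top of the intensity range on both arrays. Col2a1, the fibrillar collagen of cartilage, had signals of 10187, 13435, 13380.1 and 13571, and the proteoglycan Acan of 7475, 8242, 9275 and 10139. Sox9, the transcription factor of the chondrocyte lineage, had signals of 3826, 5485, 3765 and 4216. Matn3 itself had signals of 10185, 9945, 10462 and 10572, a difference of 1.01-fold in the comparison. Xbp1 had signals of 8183, 7877, 11403 and 9548, 1.19-fold lower in the double mutant, and its 4 probe sets were lower by 0.26 to 0.71 on the log2 scale. The position of these probe sets in the transcript was not analysed here, and one outside exon 2 cannot show the deletion.

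Over 18193 genes, 3171 (17.4%) were higher in the double mutant than in the Matn3 mutant and 1642 (9.03%) were lower. Among the 10982 genes at or above the median intensity the counts were 1304 (11.9%) and 330 (3%). Among the brightest 4549 genes, with a mean signal of 596 or more, 270 (5.94%) were higher and 69 (1.52%) lower. The weakest signals held the most calls. Among the weakest 4549 genes, with mean signals up to 10.6, 25.3% of genes were higher and 20.2% lower, and the standard deviation of the log2 difference was 1.03 against 0.30 among the brightest. Of all genes called, 65.9% were higher. With differences centred, after the data had been seen, on the median of the 10982 brighter genes, 2041 genes were higher and 2311 lower, so that 46.9% of those called were higher.

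**Figure D1:**
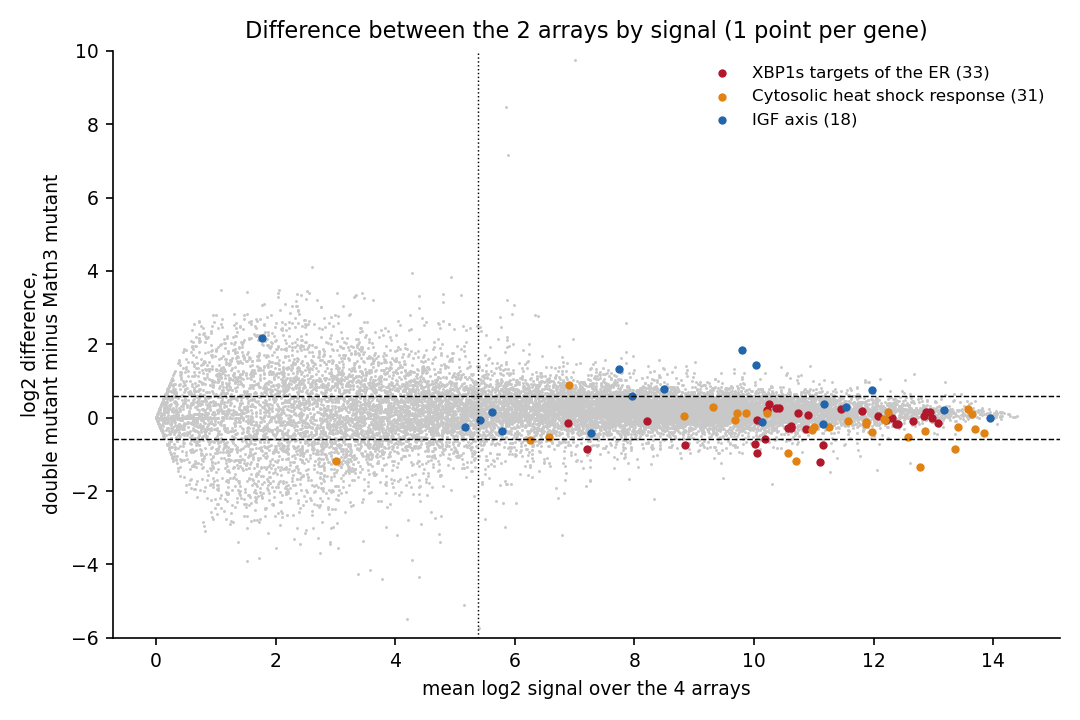
Log2 difference, double mutant minus Matn3 mutant, of 18193 genes (grey) against their mean log2 signal, with XBP1s targets of the ER, the cytosolic heat shock response and the IGF axis in colour. Dashed lines mark 1.5-fold and the dotted line the median intensity. The spread is widest at low signals, where the standard deviation is 1.03, and the 3 highest points are Eif2s3y, Uty and Kdm5d.

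Genes regarded as targets of XBP1s in the ER were lower in the double mutant for 7 of 33 members (21.2%), and none was higher. All 33 lay above the median intensity, where 3% of genes were lower. The median of the list was -0.09 and those of 2 scalings, quantile normalization and centring on the brighter genes, were -0.20 and -0.28, with 7 members lower under each. The list was written knowing which ER genes earlier results of these arrays had named, so its count is a description.

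Creld2, an ER protein with disulphide isomerase activity, had the largest difference of the list. Its signal was 1645 in the wild type, 1509 on loss of XBP1, 4667 with the Matn3 mutation and 2009 with both, 2.32-fold lower in the last than with the Matn3 mutation alone. Sec11c, a catalytic subunit of the signal peptidase, had signals of 1019.8, 886, 1668 and 849 (1.97-fold lower). Both had their highest signal on the Matn3 mutant array, and Sec11c was lowest in the double mutant.

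The oxidase Ero1b, which reloads disulphide isomerases with oxidizing power, had signals of 116, 139, 235 and 129 (1.82-fold lower). Dnajc3, a co-chaperone of BiP also known as p58IPK, had signals of 2109, 1769, 3525 and 2102 (1.68-fold). In the double mutant both lay between the wild type and XBP1 null signals. Hyou1, a large chaperone that exchanges the nucleotide of BiP, and Sdf2l1, a partner of BiP complexes, took another course. Hyou1 had signals of 273, 257, 1022 and 615 (1.66-fold lower) and Sdf2l1 of 557, 489, 2608 and 1599.8 (1.63-fold lower). Both stayed above the wild type signal in the double mutant. Edem1, which hands misfolded glycoproteins to ERAD, had signals of 1065, 959.5, 1632 and 1085 and was at the threshold (1.5-fold lower).

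The 26 other members differed by less. The nearest below the threshold were Dnajb11, a co-chaperone of BiP, with signals of 1594, 1638, 2434 and 1974 (1.23-fold lower), Sec23b, a coat protein of vesicles leaving the ER, with 1379.6, 1351, 1851 and 1525 (1.21-fold lower), and Syvn1, the ubiquitin ligase of ERAD, with 1529.8, 1265, 1952 and 1612 (1.21-fold lower). Sec31a, another coat protein of these vesicles, had the largest difference upwards (1526, 1222, 949 and 1228, 1.29-fold higher). Between XBP1 null and wild type, arrays that take no part in the comparison, 0 of the 33 genes passed 1.5-fold in either direction and the median log2 difference was 0.02.

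Other probe sets were read for the 7 genes. Hyou1 was lower by 0.88 and 1.73 on the log2 scale on its 2 other probe sets, Sec11c by 1.17 on its other one, and Edem1 by 0.46. Ero1b was also lower on 2 weak probe sets, by 2.87 with the median over its probe sets, and Creld2 and Sdf2l1 have 1 probe set each. Dnajc3 has 4 further probe sets, on which it was lower by 0.26 to 0.60. All of these were lower in the double mutant, and those of Edem1 and 3 of those of Dnajc3 were within 1.5-fold.

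**Figure D2:**
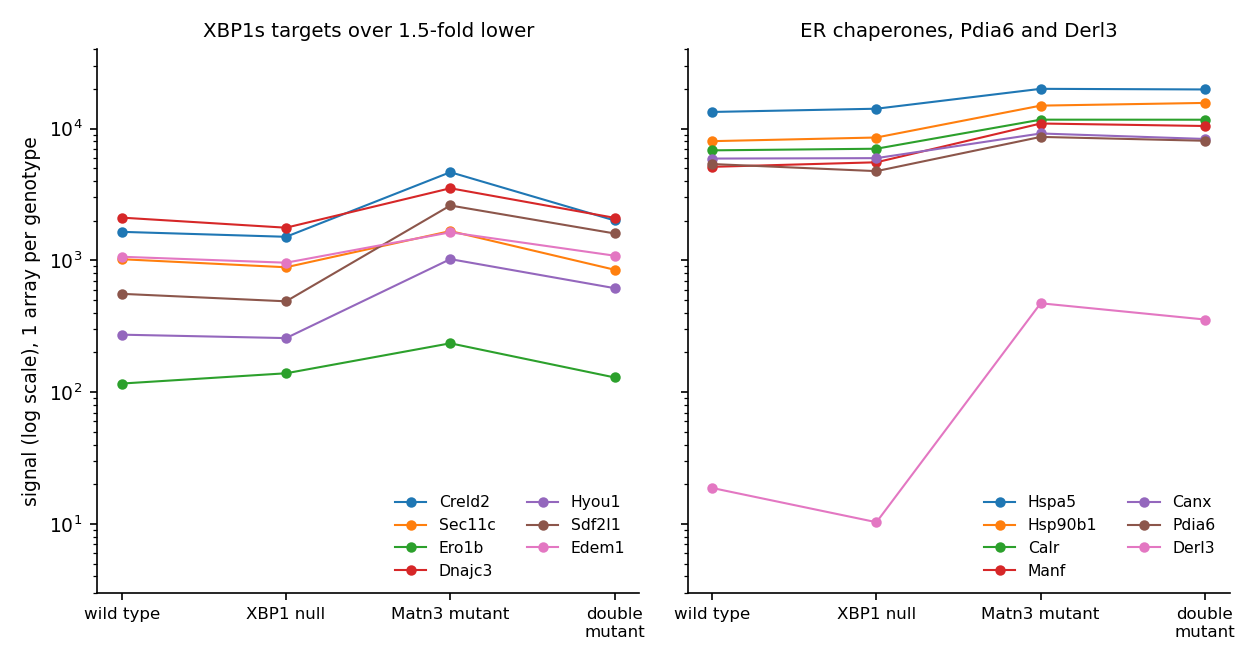
Signals on the 4 arrays (log scale, 1 array per genotype, lines join the values of a gene) of the 7 XBP1s targets over 1.5-fold lower in the double mutant, left, and of 5 ER chaperones, Pdia6 and Derl3, right. On the left each gene is lower in the double mutant than in the Matn3 mutant, by 1.5-fold to 2.32-fold, and on the right the difference is at most 1.33-fold.

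Chaperones that were also above wild type with the Matn3 mutation differed little between these 2 arrays. Hspa5, which encodes BiP, had signals of 13371, 14149.9, 20030.3 and 19811, Hsp90b1, the ER form of HSP90, of 8027, 8555, 14935 and 15659, and Calr, the lectin chaperone calreticulin, of 6835, 7032, 11684 and 11675. Between the Matn3 mutant and the double mutant these 3 differed by at most 1.05-fold. They were 1.5-fold to 1.86-fold above wild type in the Matn3 mutant, a comparison that uses the same Matn3 mutant array. Manf, a secreted ER stress protein, had signals of 5125, 5548, 10927 and 10462, and Pdia6, a disulphide isomerase, of 5382, 4754, 8646 and 8081. The dimmer probe set of Pdia6 was lower by 0.89 on the log2 scale. The ERAD factor Derl3 had the widest range of these genes, with signals of 18.7, 10.3, 472 and 356, and was 1.33-fold lower in the double mutant.

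Promoter sequences were read for the motifs that UPR transcription factors bind. In the RefSeq promoters of assembly GRCm38.p6, 250 bases before to 50 bases after each start, 3 motifs were searched on both strands. They were the ER stress response element ERSE (CCAAT, any 9 bases, CCACG), ERSE-II (ATTGG, any 1 base, CCACG) and the core of the UPR element UPRE (TGACG joined to TGG, which contains the CCACG of the other motifs read from the opposite strand). The ERSE was in 39 of 32851 promoters (0.119%), ERSE-II in 12 (0.0365%) and the UPRE core in 222 (0.676%). Of the 145 genes of the 6 ER lists (XBP1s targets, chaperones, disulphide isomerases, ERAD, translocon and transport to the Golgi) 119 had a promoter in the table, and 10 of these held an ERSE. The 10 were Creld2, Dnajc3, Ero1b, Hspa5, Hsp90b1, Calr, Canx, Pdia6, Derl3 and Syvn1, of which the first 3 were over 1.5-fold lower in the double mutant. Their median log2 difference was -0.21, against 0.12 for the 109 genes without the motif, of which Sdf2l1, Edem1 and Magt1 were over 1.5-fold lower. Sec11c and Hyou1 had no promoter in the table.

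Below are the stretches around the ERSE of 3 lower genes and 2 that were within 1.5-fold, all on the plus strand, with both ends of the motif in capitals. They are Creld2 (chr15:88819490-88819568), Dnajc3 (chr14:118937797-118937875), Ero1b (chr13:12565652-12565730), Pdia6 (chr12:17266461-17266539) and Hspa5 (chr2:34771995-34772073). In Creld2 and Ero1b the motif lies on the opposite strand, so its ends read CGTGG and ATTGG.
Creld2: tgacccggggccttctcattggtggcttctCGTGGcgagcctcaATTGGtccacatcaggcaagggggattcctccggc
Dnajc3: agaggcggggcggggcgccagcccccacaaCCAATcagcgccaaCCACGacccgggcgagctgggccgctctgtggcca
Ero1b: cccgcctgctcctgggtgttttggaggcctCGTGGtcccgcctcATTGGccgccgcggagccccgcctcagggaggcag
Pdia6: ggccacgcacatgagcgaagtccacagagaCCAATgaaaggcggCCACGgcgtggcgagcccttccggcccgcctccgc
Hspa5: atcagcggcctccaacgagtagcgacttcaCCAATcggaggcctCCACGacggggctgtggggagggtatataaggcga
Hspa5 and Dnajc3 carry the motif in the same orientation but differed by 1.01-fold and 1.68-fold. On the brightest probe set of each gene the motif was present on both sides of the 1.5-fold threshold. For Pdia6 the dimmer probe set was over 1.5-fold lower. The paper also reports Pdia6 mRNA and protein as lower when XBP1 was removed from Matn3 mutant cartilage. The presence of the motif in these windows is a description of the letters only.

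Among the sensors and transcription factors of the UPR, 0 of 12 passed 1.5-fold, and the median was 0.16. The gene of IRE1, Ern1, had signals of 465, 922, 972 and 754 and differed downwards by 1.29-fold in the double mutant. Ddit3, the transcription factor CHOP, had signals of 7047, 6726, 7053 and 9927 and differed upwards by 1.41-fold. The stress-induced factors Atf3 (13866, 12018, 10396 and 13539.6) and Cebpb (9025, 7847, 7174 and 9812) differed upwards by 1.30-fold and 1.37-fold, which is also within the threshold.

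The next 4 ER lists are set beside all genes at or above the median intensity, of which 11.9% were higher and 3% lower. All members lay there, apart from the disulphide isomerases and oxidases, of which 20 did, with 2 lower and 1 higher. Of 25 ER chaperones and lectins, 4 were lower (Creld2, Dnajc3, Hyou1 and Sdf2l1) and 1 was higher, Creld1, a paralogue of Creld2, with signals of 92.3, 125, 255 and 382, just past the threshold, which lost its place under quantile normalization and under centring. Of 21 disulphide isomerases and oxidases, Ero1b and Magt1 were lower, and Txndc12 and the weak Erp27 were higher. Magt1, a subunit of the oligosaccharyltransferase that also carries magnesium, had signals of 2239.7, 1886, 4128 and 2732 (1.51-fold lower). The other ER lists turned on single genes. Edem1 was the 1 of 25 ERAD genes to be lower, and Sec11c the 1 of 32 genes of the translocon, signal peptidase and oligosaccharyltransferase, with none higher in either. The medians of these 4 lists were -0.02, 0.09, 0.07 and 0.06, each below the 0.15 of all genes.

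Of 40 genes of ER to Golgi transport 3 were higher, all of them coatomer subunits: Copz2, Cope and Copz1, with folds of 1.68, 1.57 and 1.53, and 1 was lower, the weak Tmed2. Copz2 had signals of 4137, 3126, 2137 and 3595, the lowest being that of the Matn3 mutant. None of the 3 passed 1.5-fold after centring on the brighter genes, and the median of this list was 0.17. Among its 39 members at or above the median intensity 3 were higher and 0 lower, against 11.9% and 3% of genes there. Of 15 reported substrates of IRE1-dependent decay, mRNAs that IRE1 is known to cut besides Xbp1, Galnt10 was higher (148, 238, 105 and 218, 2.08-fold) and 0 were lower, with a median of 0.19. All 15 lay at or above the median intensity.

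Targets of PERK and ATF4, the arm of the UPR for amino acid supply and redox, had 1 gene higher and 2 lower among 34, with a median of -0.02. All 34 lay at or above the median intensity, where 11.9% of genes were higher in the double mutant and 3% lower. Fgf21, a secreted hormone of metabolic stress, had signals of 142, 140.4, 195 and 599, 3.08-fold higher in the double mutant and the highest there. Cth, an enzyme of cysteine synthesis, had signals of 1955, 3884, 3925 and 2355 (1.67-fold lower), and Slc7a11, which imports cystine, of 32.4, 133, 188 and 118 (1.59-fold lower, but within 1.5-fold with the median over its probe sets). Of the same 34 genes 19 were over 1.5-fold higher in XBP1 null than in wild type, with a median of 0.72, and 0 were lower. On that pair of arrays 18.8% of genes at or above the median intensity were higher and 5.82% were lower.

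Cytosolic heat shock genes, which fold proteins outside the ER under the factor HSF1, were lower for 6 of 31 members and higher for 1, against 9.03% and 17.4% of all genes, with a median of -0.25. The list also holds Hspd1, a mitochondrial chaperonin. Among the 30 members at or above the median intensity 5 were lower, against 3%. Like the XBP1s targets, this list and those below were chosen with earlier results of these arrays known. The study had named Hsph1, Dnaja4 and Cryab on them, so the counts are descriptions. Hsph1, a co-chaperone that exchanges the nucleotide of HSP70, had signals of 10788, 9677, 7695 and 3016 (2.55-fold lower). Dnaja4, a J-domain co-chaperone, had signals of 5054, 2306, 1228 and 545 (2.25-fold lower). The small heat shock protein Cryab had signals of 2955, 2060.0, 1289 and 667 (1.93-fold lower on its brightest probe set, whose name ends in _a_at). For these 3 genes the order of the arrays was the same, with wild type highest and the double mutant lowest. Hspa1a, an inducible HSP70, had signals of 13399, 11324, 12117 and 6692 (1.81-fold lower), and its near-identical copy Hspa1b, whose transcripts may share probes with it, of 15413, 15397, 16244 and 12128, within 1.5-fold. Hsf2, a heat shock factor, was 1.52-fold lower at signals of 78.2, 71.3, 96.1 and 63, and Hspa1l was at signals of 134, 14, 2.29 and under 1. The gene higher in the double mutant was Dnajb5, with signals of 85.5, 130.3, 101 and 186.

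Probe sets of some heat shock genes gave different sizes. Hsp90aa1, the inducible cytosolic HSP90, was lower by 0.31 on the log2 scale on its brightest probe set and by 0.71 and 0.81 on the next 2. For Hspa8, the constitutive HSP70, 3 probe sets differed by 0.04 to 0.09 and the fourth had signals of 2393 in the Matn3 mutant and 1181 in the double mutant, a difference of -1.02. Both probe sets of Hsph1 and all 3 of Dnaja4 were over 1.5-fold lower. The 2 bright probe sets of Cryab were lower by 0.95 each, and the dimmest was higher by 0.28. Cryab thus turns direction when probe sets with names ending in _s_at, _x_at or _a_at are left out. Hsf2 was lower by 0.34 with the median over its probe sets, which is within 1.5-fold. With the median over the probe sets of each gene, 10 members of the list were lower.

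**Figure D3:**
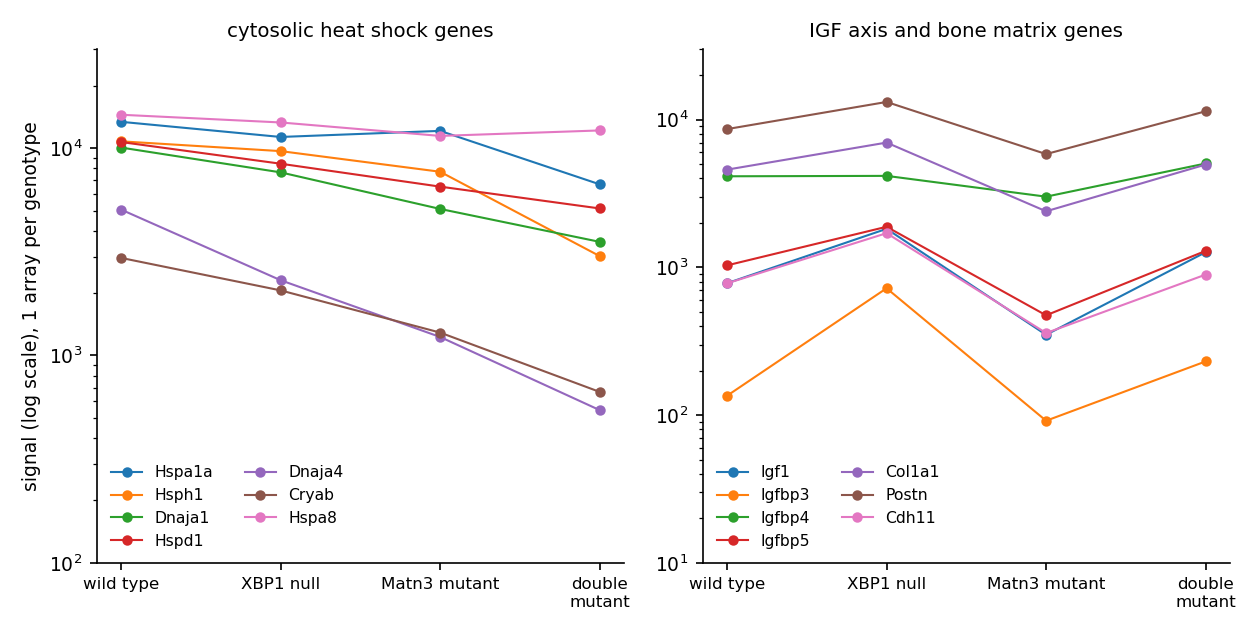
Signals on the 4 arrays (log scale, 1 array per genotype, lines join the values of a gene) of 7 genes of the cytosolic heat shock list, left, and of 7 genes of the IGF axis and bone matrix, right. Hspd1, on the left, is a mitochondrial chaperonin that this list also holds. Hsph1, Dnaja4 and Cryab are lowest in the double mutant, whereas the genes on the right are lowest in the Matn3 mutant and 1.68-fold to 3.62-fold higher in the double mutant.

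Genes of the insulin-like growth factor (IGF) axis were higher for 7 of 18 members and lower for 0, against 17.4% and 9.03% of all genes, with a median of 0.25, and after centring 5 were higher and 1 lower. The study had named Igf1, Igfbp3 and Igfbp5 on these arrays, so the count is a description. Igf1, a growth factor for the growth plate, had signals of 781, 1825, 349.7 and 1267, 3.62-fold higher in the double mutant than in the Matn3 mutant. All 4 of its probe sets were higher, by 1.75 to 1.86 on the log2 scale. Among the binding proteins, Igfbp5 had signals of 1032, 1884, 474 and 1293 (2.73-fold higher), Igfbp3 of 135, 722, 91.5 and 231 (2.52-fold higher) and Igfbp4 of 4139, 4166, 3013 and 5053 (1.68-fold higher). Each was lowest in the Matn3 mutant. The second, dimmer probe set of Igfbp5 differed by 0.11 on the log2 scale, and with the median over both the difference was 0.78. Pappa2, a protease of binding proteins, was 1.72-fold higher (328, 539.5, 234 and 402) and Igfbp6 1.51-fold higher (183, 430.2, 180.1 and 272). Igfbp1, the last of the 7, had signals of 5.76, 5.13, under 1 and 4.55. The receptor Igf1r (904, 1069, 1334 and 1229) and the ligand Igf2 (13835, 16061, 16659 and 16652) were within 1.5-fold. Between XBP1 null and wild type 8 of the 18 genes were higher, against 18.8% of genes at or above the median intensity, Igf1 by 2.34-fold, Igfbp3 by 5.34-fold and Igfbp5 by 1.83-fold among them, and 3 were lower.

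Bone matrix and osteoblast genes were higher for 8 of 21 members and lower for 2, against 17.4% and 9.03% of all genes, with a median of 0.35. All 8 and neither of the 2 were among the 17 members at or above the median intensity, where 11.9% of genes were higher. The study had named Col1a1, Ibsp, Tnc and Sost on these arrays, so these counts are descriptions. Col1a1, the fibrillar collagen of bone and fibrous tissue, had signals of 4591, 7001, 2398 and 4969.6 (2.07-fold higher). Postn, a matricellular protein of the perichondrium and periosteum, had signals of 8639.9, 13191, 5852 and 11407 (1.95-fold higher), and the cadherin Cdh11 of 780.1, 1705, 359 and 894 (2.49-fold higher). All 3 were lowest in the Matn3 mutant and highest in XBP1 null chondrocytes. The bone sialoprotein gene Ibsp had signals of 75.8, 140.2, 7.46 and 41.5 (5.57-fold higher), and Col1a2 (12116, 14611, 14466 and 15744) was within 1.5-fold. Sost, which encodes the Wnt inhibitor sclerostin of osteocytes, was 14.8-fold lower, with signals of 13.6, 20.4, 86.5 and 5.86 on its brighter probe set and under 1 on all arrays on the other.

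Many markers of neighbouring cells were higher as well. Of 19 markers of perichondrium, tendon and fibroblasts, 11 were higher and 0 lower, against 17.4% and 9.03% of all genes, with a median of 0.65, and their summed signal was 61578.5 in the Matn3 mutant and 76964 in the double mutant. Thy1, a surface protein of mesenchymal cells, had signals of 169, 368, 41.3 and 113 and Tnmd, tenomodulin of tendon, of 4107, 5577, 2605 and 4548. The brightest of the list, Dcn, Col1a2 and Lum, differed upwards by 1.09-fold, 1.09-fold and 1.14-fold. Pdgfra and Fbln5 differed downwards by 1.13-fold and 1.28-fold. Of 15 endothelial markers 10 were higher and 1 lower, with summed signals of 970.1 and 1659. Plvap had signals of 5.9, 558, 30.7 and 117, while Pecam1 was under 1 on both arrays. Of 18 muscle markers 9 were higher and 1 lower, with sums of 2253 and 3109 (3406 in wild type) and Myh3 and Tnnc2 under 1 in the double mutant. Only 5 of the 18 lay at or above the median intensity, of which 2 were higher. Most of the sum was Tnnt3 (2780, 1906, 1829 and 2406), itself within 1.5-fold. The part of these cells in the IGF and bone matrix differences was not tested, and in RNA of whole preparations fewer cells of a type and less RNA per cell cannot be told apart. Of the other marker lists, 3 of 5 erythroid genes, 3 of 10 adipocyte genes and 1 of 8 genes of nerve were higher, with 0, 0 and 1 lower, and 3 of 10 osteoclast genes were higher and 3 lower, all but Ctsk (876, 1929.8, 1275 and 2715) at weak signals. At or above the median intensity lay 1 erythroid, 3 adipocyte and 5 nerve genes, of which 1, 0 and 0 were higher.

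Genes of inflammation and targets of NF-kB were lower for 11 of 38 members and higher for 2, against 9.03% and 17.4% of all genes, with a median of -0.33. The chemokine Ccl20 had signals of 104, 23.4, 151 and 4.36 and the chemokine Cxcl5 of 8.86, 15.6, 39.7 and 2.09. Csf2, the cytokine GM-CSF, had signals of 430.0, 999.8, 1371 and 441 (3.11-fold lower), and Il23a, a subunit of interleukin-23, of 68.3, 28.4, 246 and 79.6 (3.09-fold lower). The Matn3 mutant was the highest array for all 4 genes. The double mutant signals of Ccl20 and Cxcl5 were under 5.52, the 25th percentile of intensities, and with that value as the floor their log2 differences were -4.77 and -2.85. Ccl5 (1935, 4805, 5201 and 2850.5), the prostaglandin E synthase Ptges (384, 806, 1315 and 738) and Il11 (727, 2396, 1805 and 1015) were lower by 1.82-fold, 1.78-fold and 1.78-fold. The NF-kB inhibitor Nfkbia (11286, 11668, 14395 and 14522) and Il6 (1651, 3727, 2135 and 2246) were within 1.1-fold. The 2 higher members, Il1b and Ccl3, had weak signals. Among 31 members at or above the median intensity, 7 were lower and 0 higher, against 3% and 11.9%.

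Of 17 leukocyte markers 4 were higher and 0 lower, against 17.4% and 9.03% of all genes. The median was 0.00, which is the value of Aif1, C1qa, Cd3e and Elane, all under 1 on both arrays. Only 6 of the 17 lay at or above the median intensity. Of these 2 were higher and 0 lower, against 11.9% and 3% of genes there. Summed signals were 5886 in the Matn3 mutant and 4939 in the double mutant. Most of that sum was Cd14 (1961, 6133, 5115 and 4066), and its part in the inflammatory genes was not tested.

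Matrix proteases and their inhibitors were lower for 8 of 33 members and higher for 2, against 9.03% and 17.4% of all genes, with a median of 0.03. All 8 were among the 30 members at or above the median intensity, where 3% of genes were lower. Mmp3, Mmp10 and Adam19 had been named by the study on these arrays, so these counts are descriptions. Mmp3, stromelysin-1, had signals of 1783, 2688, 4696 and 1679 (2.80-fold lower), and Mmp10, stromelysin-2, of 210.0, 324, 400.3 and 125 (3.21-fold lower). Mmp13, the collagenase of hypertrophic cartilage, had signals of 469, 515, 687 and 349.7 (1.96-fold lower). Mmp12, Adam8, Adam19 and the plasminogen activators Plat and Plau were lower by 1.73-fold to 2.61-fold. The aggrecanases Adamts4 (160.0, 452, 248 and 335) and Adamts5 (149, 246, 136 and 138) were within 1.5-fold. Timp4, an inhibitor of metalloproteases, had signals of 113, 127, 48.3 and 186 (3.85-fold higher, and by 3.82 on the log2 scale with the median over its probe sets), and the weakly detected Mmp11 was the second gene higher in the double mutant.

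In the transforming growth factor family, 7 of 34 genes were higher and 5 lower, against 17.4% and 9.03% of all genes, with a median of 0.31. Among the 31 at or above the median intensity 5 were higher and 4 lower, against 11.9% and 3%. The ligands Inhba, the activin A subunit, Tgfb2, Bmp6 and Bmp8a made up 4 of the 5 lower genes. Inhba had signals of 2775, 7577, 6473 and 2403 (2.69-fold lower) and Bmp6 of 589, 1018, 1121 and 672 (1.67-fold lower). Tgfb2 had signals of 2211, 2524, 3788 and 2033 on its brightest probe set (1.86-fold lower) and was lower by 0.26 to 0.40 on the log2 scale on the other 3. The fifth, Ltbp1, which holds latent TGF-beta in the matrix, was 1.51-fold lower (134, 413, 237 and 157), and by 1.62 on the log2 scale with the median over its probe sets. The higher genes were Nog, Chrd, Fst, Fstl3, Smad6, Gdf5 and Gdf10. Follistatin, Fst, had signals of 119, 561, 133 and 232 (1.74-fold higher), Chrd, chordin, of 94.9, 83.9, 45.7 and 80.8 (1.77-fold) and the inhibitory Smad6 of 455, 469, 355 and 606 (1.71-fold), the last within 1.5-fold after centring.

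Cartilage matrix genes differed little. Of 28 genes 27 were within 1.5-fold, with a median of 0.12. The exception was Cilp, cartilage intermediate layer protein, with signals of 874, 2350.4, 622 and 1444 (2.32-fold higher). The collagens Col9a1 (17658, 19782, 22366 and 22864) and Col11a1 (14979.5, 16294, 18155 and 18771) and the matrix protein Comp (14727, 17102, 17926 and 18237), a partner of matrilin-3, differed by at most 1.03-fold. Of 15 hypertrophic chondrocyte genes 4 were higher, Ibsp, Loxl4, Mef2d and Panx3, and 1, Mmp13, was lower, against 17.4% and 9.03% of all genes. After centring 1 of the 15, Ibsp, was still higher. Among immediate early genes, induced within minutes of a stimulus or of cell isolation, 6 of 30 were higher (Fosb, Dusp1, Junb, Zfp36, Fosl2 and Btg2) and 1, Dusp5, was lower. The share higher was near the 17.4% of all genes, of which 9.03% were lower. All 30 lay at or above the median intensity, where 11.9% were higher and 3% lower. After centring 0 of the 30 were higher.

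**Figure D4:**
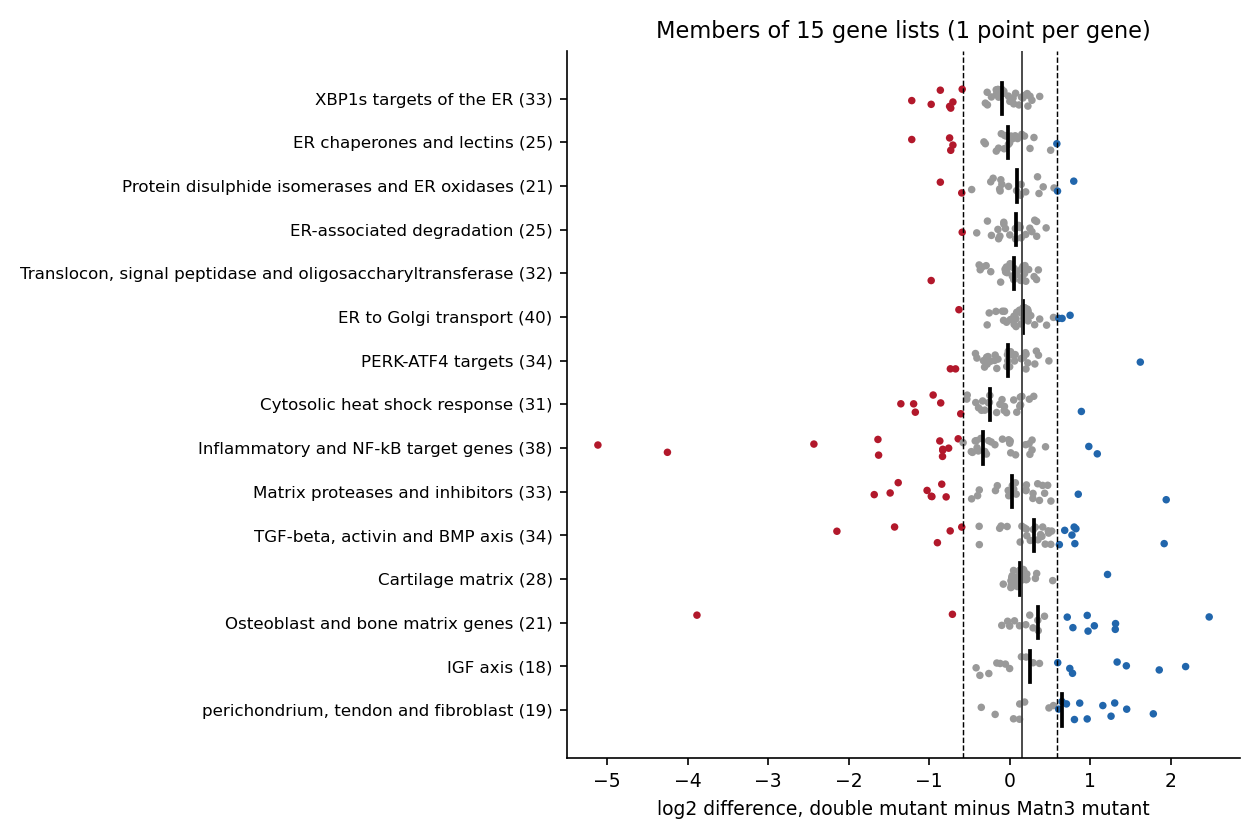
Log2 difference, double mutant minus Matn3 mutant, of the members of 15 gene lists (1 point per gene, number measured in brackets). Dashed lines mark 1.5-fold, the grey line the median of all genes, 0.15, and black bars the list medians, which run from -0.33 for inflammatory genes to 0.65 for markers of perichondrium, tendon and fibroblasts. Red points are over 1.5-fold lower and blue points over 1.5-fold higher.

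Lists of general cell functions had between 0 and 3 members past the threshold on the brightest probe set of each gene. Among all genes at or above the median intensity 11.9% were higher and 3% lower. Of 39 genes of splicing and nuclear speckles 0 were called, and of 22 cytosolic ribosomal proteins 0, with medians of -0.01 and 0.17. Of the 39 splicing genes, 36 lay below the median of all genes. The paper lists Prpf38b, Cpsf6 and Tra2a as lower in this comparison. On the brightest probe set they differed by at most 1.15-fold, and their other probe sets are not given here. Of 27 genes of mitosis Plk1 was higher, of 26 genes of DNA replication Tk1, and of 29 genes of autophagy Ulk1, the kinase that starts it (334, 358, 373 and 719, 1.93-fold, and 1.83 on the log2 scale with the median over its probe sets), with none lower. Respiratory chain subunits had a median of 0.34, above that of all genes, and 2 of 29, Sdhb and Uqcrc1, were higher. Phospholipid synthesis had 2 of 27 members higher, Lpin1 (1092, 1159, 1639.7 and 2649.7, 1.62-fold) and Pcyt1b, and cholesterol synthesis 3 of 25, Mvk (143, 139, 50.4 and 132, 2.63-fold), Mvd and Nsdhl, with none lower in either. All 25 cholesterol genes lay at or above the median intensity, and their share was near the 11.9% there. After centring on the brighter genes 0 phospholipid genes and 1 cholesterol gene were still higher.

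Apoptosis genes and targets of p53 had 4 of 24 members higher, a share near the 17.4% of all genes, and 0 lower, with a median of 0.33. The 4 were Phlda3 and 3 genes of BH3-only proteins, which promote apoptosis. Pmaip1, also known as Noxa, had signals of 238, 68.3, 12.6 and 58.4 (4.63-fold higher), Bik of 42.8, 55.3, 4.38 and 26.8 and Bbc3, also known as Puma, of 231, 177, 178 and 307 (1.73-fold higher). The log2 difference of Bik was 2.61. It was 1.06 without probe sets whose names end in _s_at, _x_at or _a_at and 3.49 with the median over its probe sets. Pmaip1 and Bik were higher still in wild type than in the double mutant, and Bbc3 was highest in the double mutant. Of 17 noncoding RNAs of the nucleus Pisd-ps3 (1025, 694, 592 and 338) and Rian (2936, 1310.4, 1882 and 1140.5) were lower and the weak Snhg14 higher. Of 5 histone genes H3c4 (233, 79.2, 60.2 and 26.8) was lower and H2bc21 higher. Of 25 genes of drug metabolism and peroxisomes 5 were higher and 3 lower, shares near the 17.4% and 9.03% of all genes, among them the peroxisomal oxidase Hao1, with signals of 37.6, 301, 627 and 241 (2.60-fold lower). Of 5 members measured in the Serpina1 and Serpina3 families 3 were higher and 1 lower, and the only member above the median intensity, Serpina3n (1503, 821, 3257 and 4794), differed upwards by 1.47-fold, within the threshold.

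Among the brightest 4549 genes, the 10 most lower genes were Adgra1, Csf2, Mmp3, Inhba, Hsph1, Xist, Tmem267, Creld2, Dnaja4 and Tfpi2. Adgra1, an adhesion G protein-coupled receptor, had signals of 1300.0, 2143, 1792 and 507 (3.53-fold lower), and its 2 other probe sets were lower by 1.55 and 2.58 on the log2 scale. The protease inhibitor Tfpi2 had signals of 329.8, 838, 1147 and 536 (2.14-fold lower). The 10 most higher genes were Igf1, Igfbp5, Thbs4, Sphk1, Cdh11, Mfap2, Tifa, Cilp, Acvr1b and Guk1. Thbs4, a thrombospondin of tendon, had signals of 1310.3, 3802, 1057 and 2826 (2.67-fold higher), and Sphk1, a sphingosine kinase, of 1115, 1770.5, 860.0 and 2225 (2.59-fold higher). Mfap2, a microfibril protein, had signals of 1946, 1966, 749.9 and 1758 and Guk1, guanylate kinase, of 1117, 1032, 400.0 and 926. For Mfap2 and Guk1 the Matn3 mutant was the 1 array that differed, with the other 3 close together. Of the 270 higher genes of this intensity 242 (89.6%) had their lowest signal of the 4 arrays in the Matn3 mutant, against 42.0% of all 4549. Of the 69 lower genes 37 (53.6%) had their highest signal there and 31 (44.9%) their lowest in the double mutant, against 10.9% and 6.31% of all 4549. These counts rest on the same contrast that called the genes.

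Over all genes at or above the median intensity, the 15 most lower were weaker genes apart from Adgra1. Several belong to stratified epithelium. Krt13, a keratin of mucosa, had signals of 81.3, 514, 183 and 19.9, and the kallikrein proteases Klk8 and Klk7 had 149, 398, 53.4 and under 1 and 146, 391, 99.3 and 21.7. For Klk8 this is a difference of at least 53.4-fold, since its double mutant signal was below the floor, and of 3.27 on the log2 scale with the floor at the 25th percentile. Of 16 markers of stratified epithelium 8 were lower and 2 higher, against 9.03% and 17.4% of all genes. Only 9 of the 16 lay at or above the median intensity. Of these 4 were lower and 1 higher, against 3% and 11.9% of genes there. Summed signals were 1729 in the Matn3 mutant, 1606 in the double mutant and 5058 in wild type. The part of such cells in these differences was not tested. Others among the 15 were the chemokine Cxcl3 (498, 179.9, 746 and 160.2), the natriuretic peptide Nppb (115, 136, 326 and 90.3), the lysophosphatidic acid receptor Lpar3 (66.9, 83.4, 126 and 25.1) and the histone gene H2bc18 (30.5, 23.3, 347 and 44.1). Besides the Y-linked genes, Ibsp and Pmaip1, the 15 most higher included Cyp26a1, which degrades retinoic acid (160.3, 173, 6.72 and 62.5), the biliverdin reductase Blvrb (129, 143, 10.7 and 75.9) and the membrane chaperone Fkbp8 (167, 118, 17.5 and 123). Each of these 3 was lowest in the Matn3 mutant.

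The XBP1 null and wild type arrays show the same loss of XBP1 without the Matn3 mutation, and share no array with the comparison. Among the 10982 genes at or above the median intensity, 2060 were higher and 639 lower in XBP1 null than in wild type chondrocytes. Of the 330 genes lower in the double mutant, 37 were lower there too (11.2% of the 330 and 5.79% of the 639), while 176 were higher there (53.3% of the 330 and 8.54% of the 2060). Of the 1304 genes higher in the double mutant, 256 were higher there (19.6% of the 1304 and 12.4% of the 2060) and 157 lower (12.04% of the 1304 and 24.6% of the 639). Over all 10982 genes these shares were 18.8% higher and 5.82% lower, so the 19.6% is near the share of any genes. Across these genes, which are not independent replicates, the log2 differences of the 2 comparisons had a Pearson r of -0.16, and of -0.31 over the brightest 4549.

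Lists can be set side by side. Inflammatory genes were higher for 14 and lower for 10 of 38 members in XBP1 null against wild type, and matrix proteases higher for 15 and lower for 2 of 33. Inhba, Csf2, Adam19 and Ccl5 were higher by 2.73-fold, 2.33-fold, 3.27-fold and 2.48-fold there, and lower in the double mutant than in the Matn3 mutant. Of the 21 bone matrix genes 13 were higher and 0 lower there, against 8 higher and 2 lower in the double mutant, and of the 19 markers of perichondrium, tendon and fibroblasts 10 were higher and 0 lower there, against 11 and 0. The endothelial markers were higher there for 15 of 15 members, with a median of 5.33, and the adipocyte markers had summed signals of 895, 5199, 1203 and 1545. The XBP1 null preparation thus stood apart from the other 3 in both. The part of such cells in the overlaps and correlations with this pair of arrays was not tested.

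Genes lower in both comparisons at or above the median intensity were led by Gm4432 and Cxcl3, and Dnaja4 and the interleukin subunit Il23a were among the first 10. Mmp12, the macrophage elastase, had signals of 206, 98.8, 227 and 87 and was 2.08-fold lower in XBP1 null and 2.61-fold lower in the double mutant. Genes higher in both were led by Afap1l1 and Plvap and included Cd248, a surface protein of pericytes and fibroblasts (39.5, 146, 26.7 and 73.7), Mgst1, a microsomal glutathione transferase (48, 248, 75.8 and 211), and Thbs4 and Igfbp3.

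**Figure D5:**
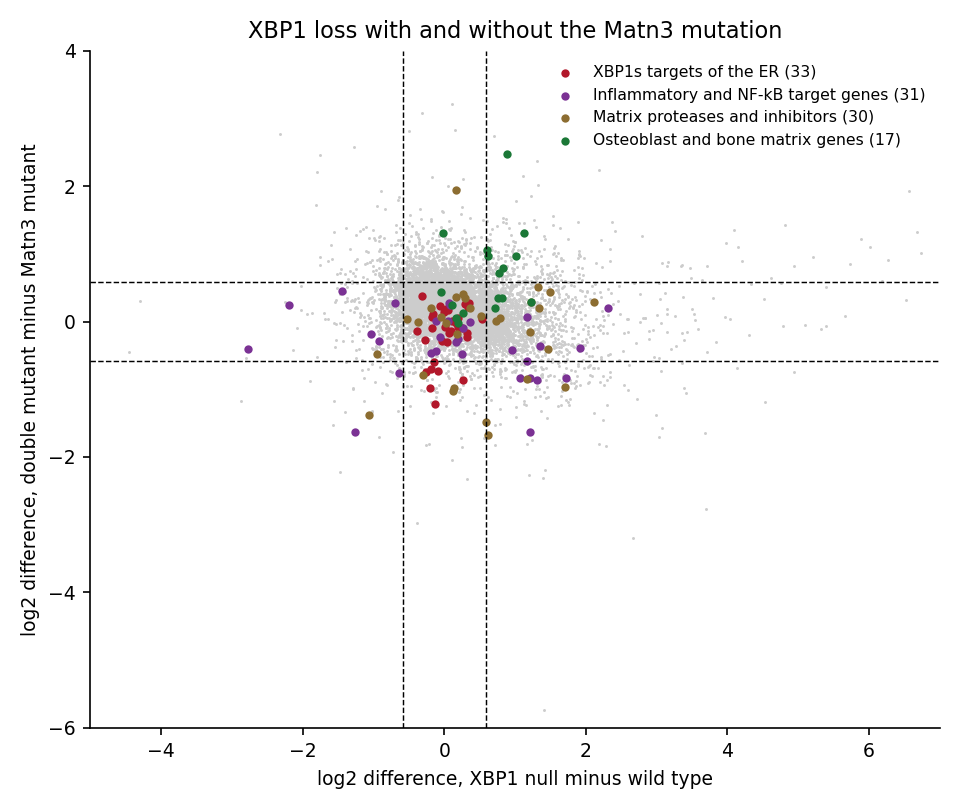
Log2 difference of genes at or above the median intensity on loss of XBP1 with the Matn3 mutation (vertical, double mutant minus Matn3 mutant) and without it (horizontal, XBP1 null minus wild type), with 4 gene lists in colour and the number of their members shown. Dashed lines mark 1.5-fold, and Eif2s3y, Uty and Kdm5d lie above the range drawn. The 7 XBP1s targets that are lower on the vertical axis are within 1.5-fold on the horizontal one.

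Other probe sets of the called genes were compared where they also lay at or above the median intensity. Of 172 such probe sets for 111 of the 330 lower genes, 156 (90.7%) were lower and 93 (54.1%) over 1.5-fold lower, and 2 were over 1.5-fold higher. Of 478 for 355 of the 1304 higher genes, 435 (91.0%) were higher and 243 (50.8%) over 1.5-fold higher, and 8 over 1.5-fold lower. Probe sets of a gene share their array and RNA, so this bears on the probe sets and not on the animals. Of 51 measured genes that had been picked on these same arrays, and so are no independent evidence, 6 were higher and 21 lower on the brightest probe set.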

How the data were processed

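Signals of 45037 probe sets on 4 arrays of the Affymetrix Mouse Genome 430 2.0 type were analysed. The authors deposited linear intensities, 1 value per probe set and array, and no source used here gives their summarization or scaling. Intensities under 1 were set to 1 before log2. GEO's platform annotation, with symbols updated to current ones, named 1 gene for 34945 probe sets, several for 932 and none for 9160, and each of 18193 genes was read from its brightest probe set. Groups followed the sample titles. With 1 array per genotype no test was run, and a fold of over 1.5 was counted.

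Named genes were the 15 most higher and 15 most lower at or above the median intensity, the 10 each way among the brightest 4549, up to 8 members of each list, the 10 each way that differed alike in both comparisons of XBP1 loss, genes named in the study, and Matn3, Xbp1 and cell type markers. Members, lists and this rule were chosen with earlier results of these data known. Alternatives were a higher floor, scalings between arrays, other choices of probe set, a filter on intensity and a 2-fold threshold. Python 3.11.15, numpy 2.4.6, pandas 2.3.3 and matplotlib 3.10.9 were used, and the counting was tested on simulated data. Precision is limited by the number of arrays.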

Additional observations from a re-analysis of the deposited data

Results flagged for a closer look

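Of the 20 genes with the largest differences among the brightest 4549, 6 passed 1.5-fold in opposite directions on loss of XBP1 with and without the Matn3 mutation. They were lower in the double mutant than in the Matn3 mutant and higher in XBP1 null than in wild type chondrocytes. Of all 69 lower genes of this intensity 34 (49.3%) did so, where 15.9% of all 4549 were higher in XBP1 null. Tifa and Guk1, higher in the double mutant, differed downwards in XBP1 null within 1.5-fold. The log2 difference on the mutant background minus that on the unmutated one was -2.54 for Adgra1, -2.85 for Csf2, -2.08 for Mmp3, -2.88 for Inhba, -2.89 for Tmem267 and -2.44 for Tfpi2. With 1 array per genotype this difference was not tested.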

How the results depend on the processing

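No paired analysis was possible because each genotype had 1 array, so that no spread between mice was measured, and weak signals varied most. Counts over all genes depended on the processing. They were 1304 higher and 330 lower with genes at or above the median intensity only, 1080 lower with the floor at the 25th percentile of intensities, 7124 higher and 6917 lower when probe sets were counted, and 1312 higher and 844 lower at 2-fold. Centring on the brighter genes, chosen after seeing the data, gave 2041 higher. Inflammatory genes lower in the double mutant numbered 7 at or above the median intensity and 17 after centring, and heat shock genes 10 with the median over probe sets. With that median the log2 difference changed sign for Prkca (0.26), Sema7a (0.23), Sox10 (-0.60), Tnc (-0.030) and Trp63 (0.089). Without probe sets whose names end in _s_at, _x_at or _a_at it changed sign for Cryab (0.28), Trp63 (0.32) and Zfp945 (0.11). The cause was not tested. Of 205 named genes past 1.5-fold, 138 stayed past it the same way under every alternative run for them.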
